A study of Mus musculus with 7 samples.

Results

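The genes described here encode the mitochondrial contact site and cristae organizing system (MICOS), the scaffold at the neck of the cristae, together with the outer membrane proteins that it binds and CHCHD10, a small intermembrane space protein reported to associate with it. The 9 members, Immt, Chchd3, Chchd6, Chchd10, Apoo, Apool, Samm50, Mtx1 and Mtx2, were chosen by name, and a value was taken for each symbol that the platform annotation gives to a probe set. Of the 9, 8 were measured, each by 1 named probe set, among 19505 named genes. Apoo has no probe set under its symbol in the annotation used here and was not analysed here.

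RNA was measured on 7 arrays of type 1 conventional dendritic cells (cDC1), the dendritic cells that cross-present antigen to CD8 T cells. They were sorted from the spleens of C57BL/6 mice, and every mouse in both groups carried a B16-OVA tumor, a melanoma line that expresses ovalbumin. The labels give 3 arrays to wild-type mice (WT) and 4 arrays to CD11c-Cre; OPA1 flox mice (KO), in which a recombinase under the CD11c promoter acts on floxed Opa1; CD11c is carried by dendritic cells of several kinds and by some macrophages. The labels state neither age nor sex, nor whether each array is a separate mouse. A p-value here therefore reflects the variation among 7 arrays and nothing wider, and some of that variation may be technical.

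Cristae are the folds of the inner mitochondrial membrane that hold the respiratory chain and ATP synthase. MICOS bends the membrane where a crista meets the inner boundary membrane and ties it to the sorting and assembly machinery (SAM) of the outer membrane, forming a bridge across both membranes. OPA1, the dynamin-like GTPase that is floxed in the KO mice, sets the width of crista junctions and acts together with MICOS, and ATP synthase dimers shape the crista rim.

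Markers of other cell types differed between the WT arrays, and this bears on every comparison below. The mean of 16 melanocyte markers, such as Pmel and Tyr, ranged from 9.06 to 11.95 over the WT arrays and from 7.40 to 8.05 over the KO arrays. Relative to the KO mean it was 3.81 log2 units higher on WT 1, 4.16 on WT 2 and 1.27 on WT 3. All 16 had a lower mean in KO, and on every KO array all 16 lay below the 95th percentile of the negative control probe sets. That percentile was 9.73 to 10.19 on the KO arrays, well above the median of all named genes there, 8.12 to 8.14. Lying below it therefore does not set these markers apart from most genes and does not show that they are absent. Pmel, a melanosome fibril protein, read 13.51, 13.59 and 11.62 in WT and 7.99 to 9.75 in KO, and Tyr, the first enzyme of melanin synthesis, 11.96, 12.31 and 8.80 in WT and 6.20 to 7.15 in KO. The mean of 16 cDC1 markers, such as Xcr1 and Clec9a, was 0.86 below the KO mean on WT 1, 2.35 below it on WT 2 and 0.05 below it on WT 3. On WT 2 Xcr1, a chemokine receptor, read 7.97 and Clec9a, a receptor for dead cells, 7.29. On WT 1 they read 12.12 and 10.46. Over WT 3 and the KO arrays Xcr1 lay between 12.70 and 12.79 and Clec9a between 12.03 and 12.11. Of cDC2 markers 6 of 8 had a lower mean in KO, and the list mean ranged from 8.22 to 10.58 in WT (highest on WT 2) and from 8.12 to 8.66 in KO. Macrophage and monocyte markers, 9 of 11 with a lower mean in KO, ranged from 8.68 to 10.13 and from 8.27 to 8.79. List means of the other cell types ranged over WT and KO arrays from 7.36 to 8.05 and 7.58 to 7.98 for B cells, from 7.56 to 8.70 and 7.60 to 8.72 for T and NK cells, from 9.03 to 10.12 and 9.53 to 9.68 for plasmacytoid cells, and from 7.001 to 7.67 and 7.31 to 7.92 for neutrophils. Alas2, the only measured erythroid marker, ranged from 7.89 to 8.55 and from 8.35 to 8.93. For Opa1 the WT arrays gave 8.14, 8.80 and 9.15 and the KO arrays 7.70, 7.10, 6.85 and 8.24, in order of their numbers, so KO 4 lay above WT 1. Groups are named below as the arrays are labelled.

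In the comparison of KO with WT, 7 of the 8 measured members had a lower mean in KO, as did 40.1% of all named genes. The members' median difference, KO minus WT, was -0.40 log2 units, against 0.06 over all named genes. No member passed the adjusted threshold of 0.05 (limma, Benjamini-Hochberg adjustment over all genes), nor did any of the 19505 genes, 0% in all. At an unadjusted p under 0.05 there were 6 of 8 members lower in KO, where 10.6% of all genes met that rule, and 0 of 8 higher, where 8.98% did. With the median of every array set equal, 2632 genes were higher and 1770 lower at that p, in place of 1752 and 2068. In 3 of 8 members every WT array lay above every KO array, which held for 5.92% of all genes; 0 of 8 had every KO array above every WT array, which held for 7.85%. The 6 at the unadjusted threshold became 2 without WT 1, WT 2, KO 1 or KO 4, and 3 without KO 2 or KO 3. The members are therefore given as values, with Chchd10 differing most and the outer membrane proteins Samm50 and Mtx1 least.

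**Figure D1:**
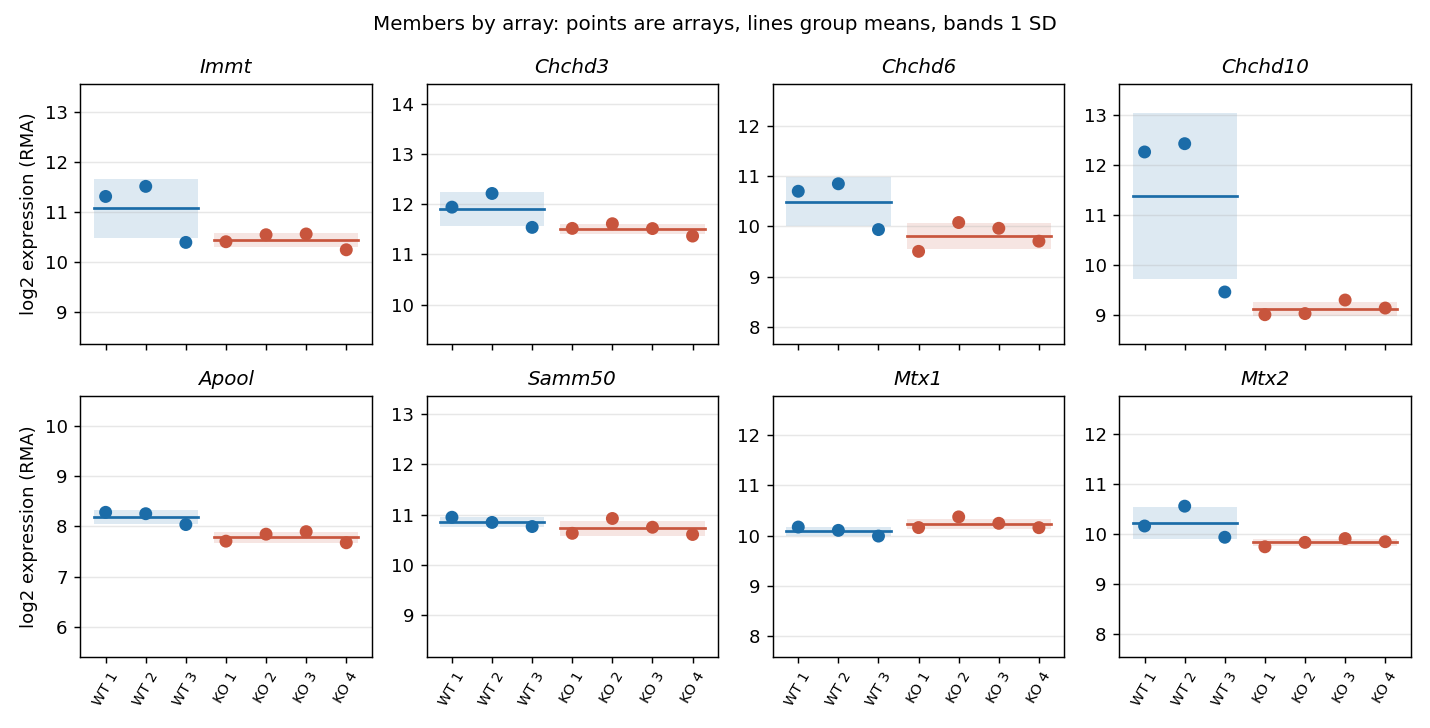
Each panel plots the log2 expression of 1 measured member (vertical axis, the same span in every panel) on the 3 WT arrays (blue) and 4 KO arrays (red); lines are group means and bands 1 SD. Chchd10 sits at 12.26 and 12.42 on WT 1 and WT 2 and at 9.46 or below on the other 5 arrays, while Samm50 and Mtx1 vary little.

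Immt encodes MIC60, the core subunit that bends the membrane at crista junctions. In log2 units WT arrays 1 to 3 gave 11.31, 11.51 and 10.40, and the KO arrays, in order from KO 1, 10.41, 10.55, 10.56 and 10.25. WT 1 and WT 2 stood above every KO array, while WT 3 lay within the KO range. WT averaged 11.07 ± 0.60 (SD, n = 3), KO averaged 10.44 ± 0.15 (SD, n = 4), and they differed by -0.63, with 0.25 as the standard error (limma, adjusted p = 0.242).

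Chchd3 encodes MIC19, which binds MIC60 and links it to SAM50 of the outer membrane. On WT arrays 1 to 3 it stood at 11.94, 12.22 and 11.54, against 11.52, 11.61, 11.52 and 11.37 on KO 1 to 4. The pattern was that of Immt with smaller distances, since WT 3 again fell within the KO range. The difference was -0.40 with a standard error of 0.16 (limma, adjusted p = 0.245). Chchd6 encodes MIC25, the paralogue of MIC19. Its values on WT arrays 1 to 3 were 10.70, 10.85 and 9.94, against 9.50, 10.08, 9.96 and 9.71 on KO 1 to 4. KO 2 and KO 3 exceeded WT 3, and the KO arrays spread over 0.58 log2 units, the widest KO range among the 8 members. The difference was -0.68 with a standard error of 0.24 (limma, adjusted p = 0.224).

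Apool encodes MIC27, an apolipoprotein O-like subunit that binds cardiolipin, the lipid typical of the inner membrane. WT arrays 1 to 3 gave 8.28, 8.25 and 8.04, against 7.71, 7.85, 7.90 and 7.67 on KO 1 to 4. Every WT array lay above every KO array, and the WT arrays lay close together, with an SD of 0.13 (n = 3) against 0.11 (n = 4) in KO. The difference was -0.41 with a standard error of 0.11 (limma, adjusted p = 0.223). Apool was the dimmest member: on the array where it stood lowest against them, 35.8% of the negative control probe sets read higher, against 14.7% for Chchd10 and 1.69% to 9.61% for the other 6.

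Chchd10 encodes a twin CX9C protein, folded by disulfides in the intermembrane space and mutated in inherited motor neuron and muscle disease. WT arrays 1 to 3 gave 12.26, 12.42 and 9.46, against 9.01, 9.03, 9.30 and 9.14 on KO 1 to 4. WT 1 and WT 2 stood far above the other 5 arrays, and WT 3 lay above KO 3, the highest KO array, by less than the KO arrays spread. WT averaged 11.38 ± 1.66 (SD, n = 3), whereas KO averaged 9.12 ± 0.13 (SD, n = 4). The difference was -2.26 (95% confidence interval -3.76 to -0.76), a 4.78-fold lower geometric mean in KO, with a standard error of 0.65 (limma, adjusted p = 0.223). When Chchd10 was tested alone by exact permutation (two-sided, the smaller tail doubled), p was 0.0571. This is the smallest value that the doubling allows with 3 against 4 arrays, and Apool and Mtx2 gave the same value.

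Samm50 encodes the outer membrane channel of the SAM complex, which inserts barrel proteins and anchors MICOS. Values of 10.95, 10.84 and 10.76 on WT arrays 1 to 3 stood against 10.63, 10.92, 10.75 and 10.60 on KO 1 to 4, so the groups overlapped. The difference was -0.13 with a 95% confidence interval of -0.39 to 0.13 (limma, adjusted p = 0.526). Mtx1 encodes metaxin 1, a SAM partner exposed to the cytosol. It was the member with a higher mean in KO, with 10.17, 10.10 and 9.99 on WT arrays 1 to 3 against 10.16, 10.37, 10.24 and 10.16 on KO 1 to 4. The groups overlapped, through WT 1, and the difference was 0.15 with an interval of -0.09 to 0.38 (limma, adjusted p = 0.418). Mtx2 encodes metaxin 2, which pairs with metaxin 1. WT arrays 1 to 3 gave 10.16, 10.56 and 9.94, against 9.75, 9.84, 9.91 and 9.85 on KO 1 to 4. The WT arrays lay above the KO arrays, WT 3 by a narrow margin over KO 3. The difference was -0.38 with a standard error of 0.15 (limma, adjusted p = 0.235).

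For the members other than Apool, Samm50 and Mtx1 the difference came mostly from WT 1 and WT 2, the arrays with the highest melanocyte markers. Apool kept -0.26 of its -0.41 without them, with WT 3 above every KO array. In 6 of 8 members, all but Samm50 and Mtx1, both of these arrays stood above each of the other 5, which held for 19.4% of all genes. Without WT 3, limma called 6 of 8 members lower in KO at an adjusted p under 0.05, where 13.8% of all genes were called lower, and 0 of 8 higher, where 11.4% were. In that setting Chchd10 differed by -3.22 (limma, adjusted p = 1.26e-06), Immt by -0.97 (0.000923), Chchd6 by -0.96 (0.00344), Chchd3 by -0.58 (0.0105), Apool by -0.49 (0.0143) and Mtx2 by -0.52 (0.0208).

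Without WT 1 and WT 2, WT 3 is the only WT array left, and its variance is taken from KO. In that setting 0 of 8 members were called, as were 0% of all genes, and 0 of 8 were lower at an unadjusted p under 0.05, where 3.05% of genes were. Immt then differed by 0.047 (limma, 95% confidence interval -0.33 to 0.43), in the other direction, and Chchd3 by -0.04 (-0.38 to 0.30). Chchd10 differed by -0.34 (-0.71 to 0.03) and Apool by -0.26 (-0.60 to 0.09). The interval for Immt does not reach the -0.97 found without WT 3, nor that for Chchd10 its -3.22. The part that melanocyte RNA, or the shortfall of cDC1 markers, has in the members' differences was not tested. In bulk RNA of this kind fewer cells of a type and less RNA per cell cannot be told apart.

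**Figure D2:**
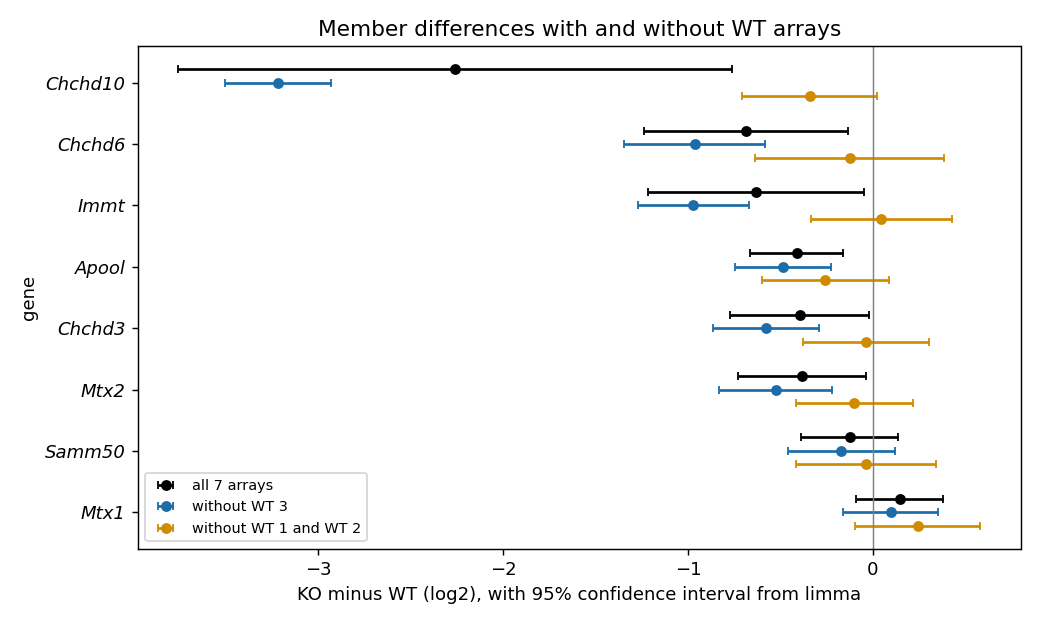
Points are KO minus WT differences in log2 units (horizontal axis) for each measured member, with 95% confidence intervals from limma, over all 7 arrays (black), without WT 3 (blue) and without WT 1 and WT 2 (orange). Chchd10 moves from -2.26 to -3.22 without WT 3 and to -0.34 without WT 1 and WT 2, and Immt from -0.63 to -0.97 and 0.047.

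**Figure D3:**
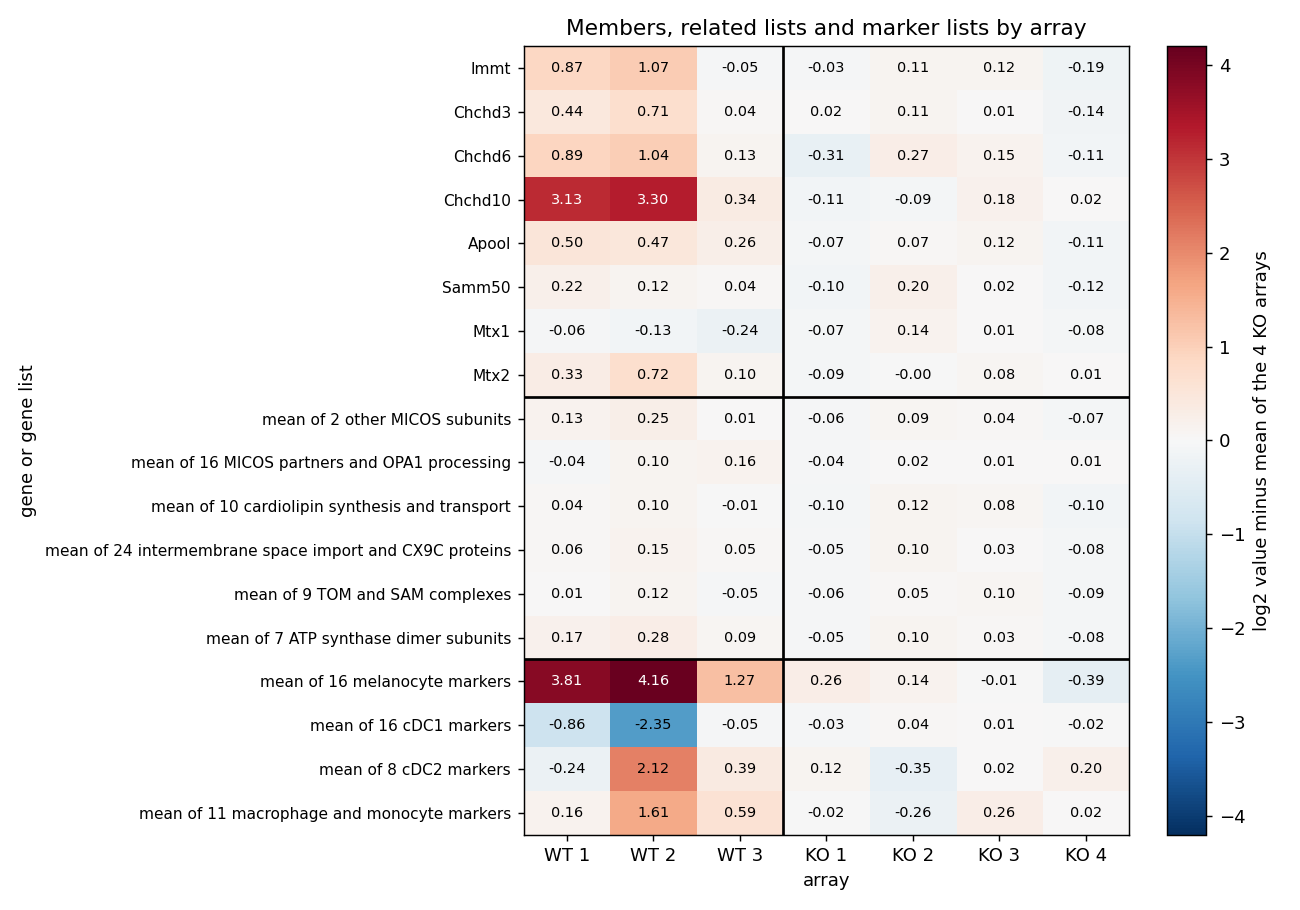
Colours and printed numbers are log2 values minus the mean of the 4 KO arrays, for each measured member (top), the mean of each related list (middle) and the mean of 4 marker lists (bottom), on every array (columns). The melanocyte list stands at 3.81, 4.16 and 1.27 on WT 1 to 3, and the cDC1 list at -0.86, -2.35 and -0.05; among the members Chchd10 has the highest values on WT 1 and WT 2.

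The promoters of the 6 members that stood above the other arrays on WT 1 and WT 2 are shown beside that of Mtx1, which did not. Samm50 did not either, and its promoter is not printed here. Each sequence is the 250 bases before the annotated start, from RefSeq on build GRCm38.p6. Capitals mark matches on either strand to 1 of 7 short motifs. The motifs searched were NRF1 (GCGCATGC), ETS (CCGGAAG), YY1 (AAGATGG), the E-box (CACGTG), the M-box bound by MITF (CATGTG), the estrogen-related receptor element (AAGGTCA) and the GC-box (GGGCGG). No motif contains another, and no matches in the members overlapped.
Immt, chr6:71831070-71831319, plus strand: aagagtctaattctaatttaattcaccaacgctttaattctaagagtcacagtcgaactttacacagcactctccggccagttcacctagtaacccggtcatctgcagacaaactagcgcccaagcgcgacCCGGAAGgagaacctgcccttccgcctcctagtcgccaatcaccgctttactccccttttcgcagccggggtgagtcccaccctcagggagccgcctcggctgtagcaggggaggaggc
Chchd3, chr6:33060261-33060510, minus strand: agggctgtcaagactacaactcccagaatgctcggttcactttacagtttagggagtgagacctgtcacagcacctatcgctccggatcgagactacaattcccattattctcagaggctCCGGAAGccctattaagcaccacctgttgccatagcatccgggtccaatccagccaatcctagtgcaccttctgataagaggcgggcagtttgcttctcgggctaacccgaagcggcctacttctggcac
Chchd6, chr6:89595653-89595902, minus strand: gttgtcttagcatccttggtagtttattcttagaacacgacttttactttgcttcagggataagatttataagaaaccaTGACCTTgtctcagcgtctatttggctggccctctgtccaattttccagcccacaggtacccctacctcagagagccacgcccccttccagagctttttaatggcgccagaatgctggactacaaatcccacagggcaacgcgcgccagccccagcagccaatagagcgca
Chchd10, chr10:75932880-75933129, plus strand: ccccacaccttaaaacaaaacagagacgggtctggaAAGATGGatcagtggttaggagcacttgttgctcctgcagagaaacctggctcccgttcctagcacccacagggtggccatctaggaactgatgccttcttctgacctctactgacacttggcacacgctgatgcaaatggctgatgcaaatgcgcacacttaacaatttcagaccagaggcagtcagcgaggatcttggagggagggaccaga
Apool, chrX:112311102-112311351, plus strand: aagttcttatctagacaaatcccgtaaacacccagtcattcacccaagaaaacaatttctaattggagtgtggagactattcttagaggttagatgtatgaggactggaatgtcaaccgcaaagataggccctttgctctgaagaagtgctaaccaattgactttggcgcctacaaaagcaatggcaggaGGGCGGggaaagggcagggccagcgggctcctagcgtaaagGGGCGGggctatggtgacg
Mtx2, chr2:74825562-74825811, plus strand: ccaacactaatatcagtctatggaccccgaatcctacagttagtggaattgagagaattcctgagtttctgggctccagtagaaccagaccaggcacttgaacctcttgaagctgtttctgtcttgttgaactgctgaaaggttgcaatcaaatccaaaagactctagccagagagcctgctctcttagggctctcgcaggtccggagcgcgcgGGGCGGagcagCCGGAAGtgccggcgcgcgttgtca
Mtx1, chr3:89213908-89214157, minus strand: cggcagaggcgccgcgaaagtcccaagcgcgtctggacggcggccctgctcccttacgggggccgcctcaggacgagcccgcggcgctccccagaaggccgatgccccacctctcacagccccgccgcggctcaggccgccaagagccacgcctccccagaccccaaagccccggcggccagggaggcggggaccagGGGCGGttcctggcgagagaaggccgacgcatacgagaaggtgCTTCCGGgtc
In these letters the ETS motif was found in Immt and Chchd3, 119 and 130 bases before the start, in Mtx2, 25 bases before it, and in Mtx1, 10 bases before it. Mtx2 and Mtx1 both held the ETS motif and the GC-box, so these letters did not separate Mtx1 from the others. Over all members it was in 4 of 10 promoters (Immt, Chchd3, Mtx1 and Mtx2; Apoo has a pair of annotated starts), against 6.91% of 32851 promoters of the same length. The GC-box was in 4 of 10 (Apool, Samm50, Mtx1 and Mtx2) against 32.7%. Chchd10 held the YY1 letters, which 4.49% of all promoters hold, and Chchd6 the estrogen-related receptor element, which 4.08% hold. The NRF1 letters (2.26% of all promoters), the E-box (6.02%) and the M-box (12.3%) were in 0 of 10. The promoter of Mtx1 was the richest in G and C of the 7 shown, at 74.0%, against 52.4% for Chchd10, which is also the median of all promoters. A match is a description of the letters and not a bound site.

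Over all 7 arrays the median difference of each of 6 related lists was closer to 0 than that of the members. Without WT 1 and WT 2 the members' median was -0.07 and that of the MICOS partners -0.12, and the difference between lists was not tested. Of 68 measured genes in these lists, 46 had a lower mean in KO, where 40.1% of all genes did. At an unadjusted p under 0.05, 8 (11.8%) were lower in KO and 4 (5.88%) higher, against 10.6% and 8.98% of all genes. By the counts at that p the lists lay near the background, but not by the share with a lower mean. No gene of these lists passed after adjustment (limma, 12 at the unadjusted threshold). The other MICOS subunits were Micos10, the MIC10 subunit that bends the membrane as an oligomer, and Micos13, which joins the MIC10 and MIC60 subcomplexes. For Micos10, WT arrays 1 to 3 gave 12.96, 13.10 and 13.00, against 12.91, 13.03, 12.99 and 12.86 on KO 1 to 4. Its groups overlapped and its difference was -0.07 (limma, 95% confidence interval -0.29 to 0.15). Micos13 differed by -0.19 (-0.47 to 0.09). The difference for Immt minus that for Micos10 was -0.56, with p = 0.229 by exact permutation over 35 splits (two-sided, the smaller tail doubled). The smallest p that this test allows is 0.0571. It could not pass 0.05 and cannot decide whether the subunits differ from each other.

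Among 16 MICOS partners and regulators of OPA1 the median difference was -0.07, with 1 lower and 1 higher at an unadjusted p under 0.05. Opa1 differed by -1.22 (limma, adjusted p = 0.223), Disc1, a scaffold protein reported to bind MICOS, by 0.61 (0.223) and Phb2, a prohibitin that forms rings in the inner membrane, by -0.39 (0.266). Oma1, the stress-activated protease that cleaves OPA1, was picked out after its values were seen. It read 9.38 and 9.29 on WT 1 and WT 2, 10.39 on WT 3 and between 10.07 and 10.36 on the KO arrays. WT 1 and WT 2 thus stood below the other arrays, where for Immt they stood above. WT 3 was above every KO array, which it was not for Immt.

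Cardiolipin synthesis and transport had a median of -0.10 over 10 genes, with 2 lower and 2 higher. Triap1, which carries phosphatidic acid to the inner membrane with PRELI proteins, differed by 0.39, Pgs1, an early enzyme of the cardiolipin pathway, by 0.44, and Prelid3b, a lipid carrier, by -0.46. Of 24 proteins of the intermembrane space, most of them CX9C proteins like CHCHD10, the median was -0.06, with 3 lower and 1 higher. Chchd5 differed by -0.59, Ndufs5, a complex I subunit, by -0.33, and Cox6b1, a subunit of cytochrome c oxidase, by -0.32.

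Chchd2, the paralogue of Chchd10, was singled out after the values were seen. WT arrays 1 to 3 gave 12.32, 12.59 and 12.32, against 12.17, 12.48, 12.40 and 12.29 on KO 1 to 4, with overlapping groups and a difference of -0.08 (limma, 95% confidence interval -0.35 to 0.20). The difference for Chchd10 minus that for Chchd2 was -2.18, given without a test because Chchd2 was chosen on these values. It came mostly from WT 1 and WT 2: on WT 3 Chchd10 minus Chchd2 was -2.855, near the highest KO value of -3.094.

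Of 9 genes of the outer membrane translocase (TOM) and SAM, the median was 0.03, with 1 lower and 0 higher. Tomm20, an import receptor, differed by -0.31, Tomm40, the translocation channel, by -0.50, and Mtx3, the third metaxin, by 0.21. Of 7 ATP synthase genes, most of them small subunits at the dimer interface, with the inhibitor Atpif1 and with Atp5e, whose product belongs to the central stalk, the median was -0.26, with 1 lower and 0 higher. Atp5k, the e subunit at the dimer interface, differed by -0.53, Atp5e, the epsilon subunit, by -0.28 and Atp5mpl by -0.28. None of these genes passed (limma, adjusted p 0.223 to 0.664 for those chosen by p from the 6 lists).

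**Figure D4:**
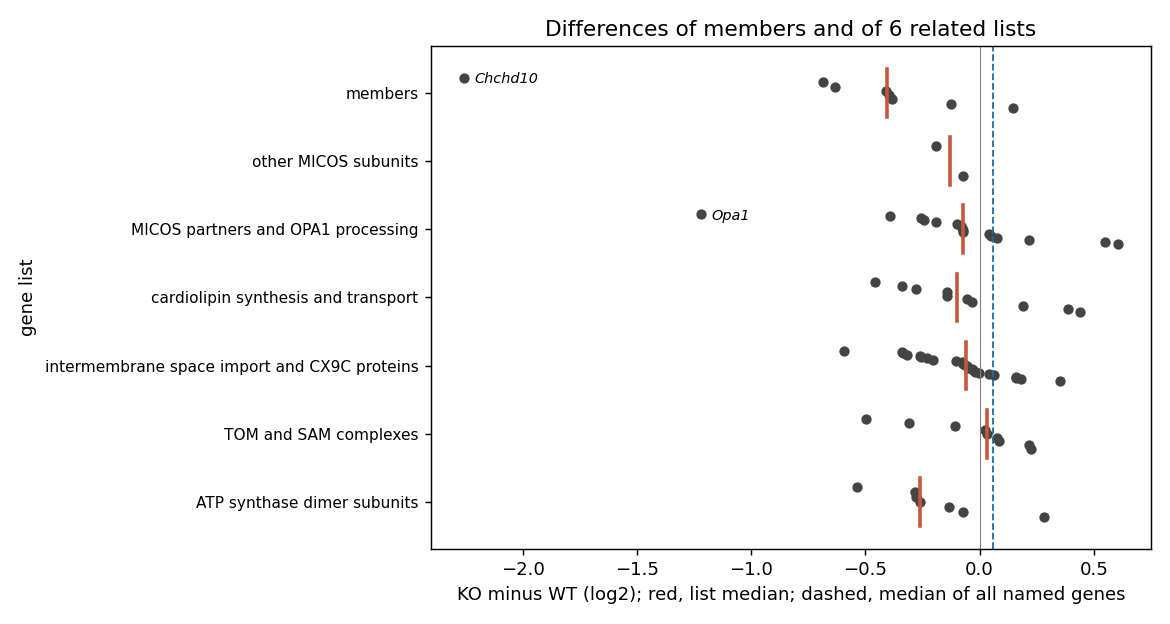
Each point is a gene's KO minus WT difference in log2 units (horizontal axis), by gene list (vertical axis); red bars are list medians and the dashed line is the median of all named genes, 0.06. The members' median is -0.40, with Chchd10 at -2.26, and those of the 6 related lists lie between -0.26 and 0.03.

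The genes whose profile over the 7 arrays lay nearest to Chchd10, by the root mean square difference of values centred on each gene's own mean, were Mlph at 0.133 log2 units, Tspan10 at 0.148 and Ccnd2 at 0.152. Mlph encodes melanophilin, which ties melanosomes to their motor. WT arrays 1 to 3 gave 10.88, 10.93 and 7.74, against 7.38, 7.58, 7.91 and 7.45 on KO 1 to 4. Tspan10, a tetraspanin, read 10.04, 10.48 and 7.26 on WT 1 to 3, and Ccnd2, a D-type cyclin, 10.63, 11.19 and 8.20. Nearest to Immt were Aldh6a1, Grhpr and Armcx2, at 0.0597 to 0.0683. Among the members, Chchd3 and Mtx2 were the closest pair, at 0.0974, and Immt and Chchd6 stood at 0.14, whereas Chchd10 lay between 0.995 and 1.46 from each of the others. Genes outside the members lay nearer than these partners, such as Utp4 at 0.0384 from Chchd3, Sar1b at 0.029 from Mtx2 and Zc3h7b at 0.0687 from Chchd6.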

How the data were processed

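The authors deposited 1 table of 28846 probe sets on 7 arrays in log2 units; the submitters' processing notes name Affymetrix Expression Console 1.1 and RMA. The log2 scale was read from the values (3.68 to 14.28). Which arrays were normalized together, and the genome build, are not given in the sources used here. RMA compresses dim signals, and the number of arrays limits precision. The platform annotation names 19572 of 22206 transcript probe sets; the brightest per symbol was kept, giving 19505 genes.

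KO minus WT was fitted for every gene by lmFit and eBayes without covariates (limma 3.58.1, R 4.3.3), adjusted over all genes. The fit was tested on simulated data in which each gene had the same SD in both groups. In the arrays the WT SD was above the KO SD in 6 of 8 members and 66.7% of all genes, which the simulation did not cover. Members and lists were chosen with earlier results of these data known. From each related list the 3 genes with the smallest unadjusted p are named, and for each member the 3 genes nearest in profile. Alternatives were leaving out arrays, a replicate block, centring, quantile normalization, a dim filter, other variance models, array weights, every probe set and an exact permutation test. No protein sequences were used here.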

Additional observations from a re-analysis of the deposited data

How the results depend on the processing

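For Chchd10, Chchd6, Chchd3, Apool and Mtx2 the direction was kept under every alternative run, as it was for Samm50 and Mtx1, which also stayed uncalled. Leaving out 1 array at a time moved the difference between -3.22 and -1.74 for Chchd10, -0.97 and -0.41 for Immt, -0.96 and -0.51 for Chchd6, -0.58 and -0.24 for Chchd3, -0.49 and -0.37 for Apool, and -0.52 and -0.21 for Mtx2; among these settings 6 members passed the adjusted threshold without WT 3 and none in the others. With array weights, which gave WT 3 a weight of 0.241 and WT 1 one of 1.95, the same 6 passed, at -2.90, -0.81, -0.83, -0.45, -0.46 and -0.38 in that order. Without WT 1 and WT 2 Immt turned to 0.047, as did Phb2 (0.053), Micos13 (0.037) and Tomm40 (0.060); the cause was not tested. Genes past the adjusted threshold numbered 0 to 4931 with 1 array left out and 4458 with array weights. At an unadjusted p they were 3820, 1616 to 7189 with 1 array left out, 1154 without WT 1 and WT 2, 2283 with the dim filter, which tests fewer genes and drops Apool, and 7038 with array weights. Members lower at that p were 6, and 2 to 6 with 1 array left out. Centring, quantile normalization and the dim filter each gave 5. With the replicate block, which takes KO 4 out of the comparison, 2488 genes and 2 members were past that p, and Chchd10 stood at -2.27. After centring on group means, same-numbered arrays correlated at -0.038, 0.046 and -0.017 across genes. Because the WT arrays differed widely in marker content, these values cannot show whether the numbers pair the arrays, and the labels do not say.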

Other observations

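Within the KO group the members' highest and lowest arrays fell in the same pairs of arrays, though the order within a pair varied. The pairs were formed after these values were seen. In each of the 8 measured members the highest KO array was KO 2 (4 members) or KO 3 (4 members), and the lowest was KO 4 (5 members) or KO 1 (3 members). The same held for 39.6% of all named genes, and in 5 of the 6 related lists the list mean was also higher on KO 2 and KO 3 than on KO 1 and KO 4. The medians of the 5222 negative control probe sets were 6.49 and 6.67 on KO 2 and KO 3 and 6.88 on both KO 1 and KO 4; their part in this order was not tested. Opa1 had the opposite order, with its lowest values on KO 2 and KO 3, at 7.10 and 6.85, against 7.70 and 8.24 on KO 1 and KO 4. The range over the KO arrays ran from 0.16 for Mtx2 to 0.58 for Chchd6. For Samm50 (0.319) and Mtx1 (0.215) it was larger in size than the KO minus WT difference, -0.13 and 0.15.

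The genes nearest in profile to the other members were Utp4, Hebp2 and Lpcat3 for Chchd3, Zc3h7b, Xylb and Ttbk1 for Chchd6, Nsmce3, Eps8l2 and Vps4a for Apool, and Sar1b, Lysmd4 and Gtf2h1 for Mtx2. For Samm50 they were Olfr1353, Ccdc106 and Tmem119, and for Mtx1 Lca5l, Prl and Prrx2. Olfr1353 read between 4.58 and 4.87 over the 7 arrays, below the median of the negative control probe sets on each, whereas Tmem119 read between 8.93 and 9.35. In members with little variation a near profile can thus come from a gene at that low level and need not reflect shared expression.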
